A study of Mus musculus with 16 samples.

Results

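The transcriptomes of lymphoid-biased multipotent progenitors (MPP4) of mice labelled Ebf1 knockout (KO) and wild type (WT) were compared. They make up 8 of the 16 libraries of the series, 4 of each label, chosen by their population label alone. The other 8 libraries are myeloid-biased MPP3 cells of the same 8 mice. MPP4 cells were sorted from lineage-depleted bone marrow as Lin- Sca1+ Kit+ cells that were CD150- CD48+ Flt3+, and poly-adenylated RNA was sequenced from low-input libraries. The labels give the strain as C57BL/6, and the study's methods give its mice the C57BL/6J background. Per the sample labels, KO mice carried floxed Ebf1 alleles with 1 copy of Tie2Cre, and WT mice carried the same floxed alleles without Cre. The series description instead gives the control mice unfloxed Ebf1 together with Tie2Cre, so whether the groups differ by the alleles or by the transgene cannot be told apart from these counts. Tie2Cre expresses Cre from the regulatory sequences of Tek (Tie2) and is active in endothelium as well as in haematopoietic stem cells, so its activity is not confined to the sorted cells. WT mice were 12, 11, 12 and 11 weeks old (replicates 1 to 4; 1 and 2 female, 3 and 4 male). KO mice were 10, 9, 11 and 11 weeks old (replicates 1 and 2 male, 3 and 4 female), so the KO mice were younger on average.

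EBF1 is the transcription factor that, with TCF3, FOXO1 and PAX5, commits lymphoid progenitors to the B lineage. It switches on the surrogate light chain and the signalling chains of the pre-B cell receptor. MPP4 cells lie upstream of that step: they carry FLT3 and show priming of lymphoid genes such as Dntt and Il7r. They still hold myeloid potential, which is carried by factors such as PU.1, C/EBPα and IRF8. The comparison addresses how gene expression differs with the Ebf1 knockout label in a progenitor that precedes the B lineage.

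Depth was 27792453 to 48703193 counts per MPP4 library, and levels are given as normalised CPM, in which each count is divided by the TMM-scaled total of its library. Errors after ± are SD over 4 libraries for levels and SE for log2 fold changes (KO over WT). A gene was called at a false discovery rate (FDR) under 0.1 in edgeR's quasi-likelihood test, and calls of DESeq2 are given beside it where named. The sort was visible in the RNA. Kit, Ly6a (Sca1), Cd48 and Flt3 were present in every library at 47.3 normalised CPM or more, while Slamf1 (CD150) had 7 to 29 counts. Of the lineage markers removed by the sort, Cd3e had at most 31 counts and Ly6g at most 4, whereas Itgam (CD11b) had 151 to 402 counts. In bulk RNA, more cells of a type and more RNA per cell cannot be told apart.

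Ebf1 counts were higher, not lower, in the libraries labelled KO. Ebf1 (chromosome 11, 44617317 to 45008091, mm10) was read 187, 98, 199 and 263 times in WT and 817, 928, 488 and 642 times in KO. Every KO library lay above every WT library. The level was 4.51 ± 1.21 normalised CPM in WT and 21 ± 3.72 in KO, a log2 fold change of 2.22 ± 0.64. This missed the threshold in the edgeR fit of all 16 libraries (FDR = 0.188) and in DESeq2 (FDR = 0.109). It passed in the edgeR fit of the 8 MPP4 libraries (FDR = 0.00468), where it also passed with each library left out in turn. In MPP3 the log2 fold change was -0.73. The counts are per gene, not per exon, so the floxed segment was not read separately, and "KO" below stands for the libraries labelled so.

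Several B-lineage genes had few counts in WT MPP4 and fewer, or none, in KO, while Vpreb1 and Cd79b did not follow this pattern. Cd79a (Igα, the signalling chain of the B cell receptor) had 81, 47, 354 and 202 counts in WT and 0, 6, 26 and 0 in KO, which did not overlap. Its log2 fold change was -3.88 ± 0.97 (edgeR FDR = 0.16). It was called in 3 of 12 alternative analyses (lowest edgeR FDR 0.0627) and without KO replicate 3 (0.0698), but with no other library left out. Vpreb3, which assists assembly of the pre-B cell receptor, had 63, 24, 197 and 100 counts in WT and 3, 9, 7 and 2 in KO. Pax5, the factor that maintains B-cell identity, had 40, 0, 129 and 52 counts in WT and 0 in each KO library. These 3 genes share a pattern: WT replicate 3 was highest, WT replicate 2 lowest, and the KO libraries were at or near 0. Igll1 (λ5, part of the surrogate light chain) had 10, 8, 181 and 147 counts against 1, 3, 12 and 0, so that the groups overlapped. Pou2af1, a B-cell co-activator, had 36, 13, 26 and 47 counts against 0, 0, 3 and 0. The other 4 genes were too low to pass the filter, and without it edgeR's FDR was 0.153 for Vpreb3, 0.178 for Pou2af1, 0.275 for Pax5 and 0.343 for Igll1. Vpreb3 and Pou2af1 were chosen after their values were seen.

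**Figure D1:**
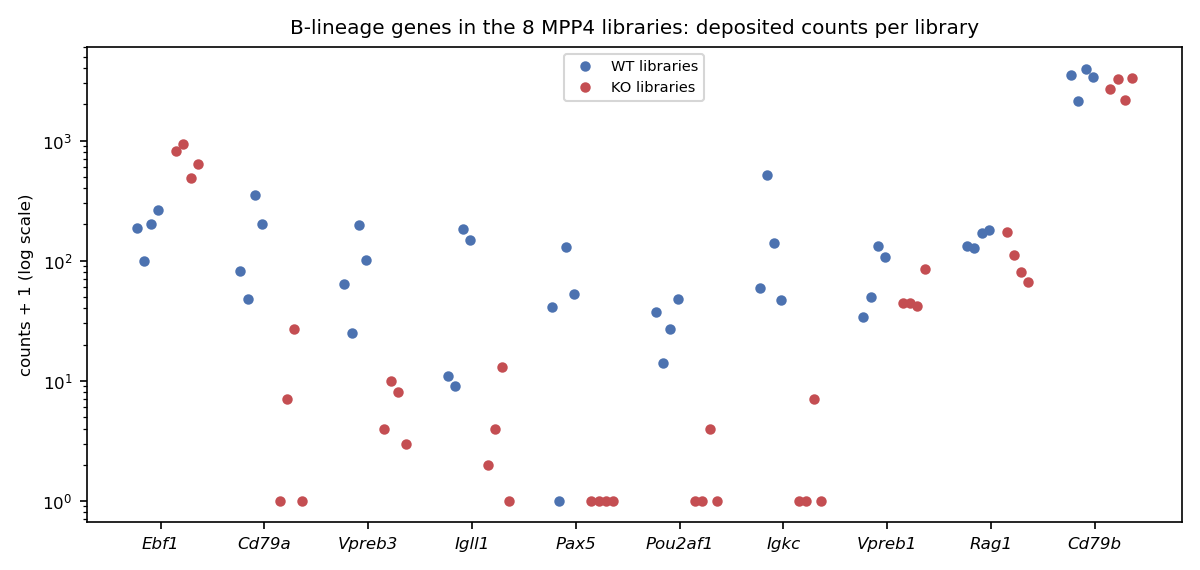
Counts of B-lineage genes in each MPP4 library (vertical axis, count plus 1, log scale), WT and KO side by side for each gene, with 1 point per library. Ebf1 lies higher in the 4 KO libraries, Cd79a, Vpreb3, Pax5 and Pou2af1 lie lower or at 0 there, and Vpreb1, Rag1 and Cd79b overlap between the labels.

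Other genes of the early B lineage did not share that pattern. Vpreb1, another surrogate light chain gene, had 33, 49, 132 and 107 counts in WT and 43, 43, 41 and 85 in KO. Cd79b (Igβ), far more abundant than Cd79a, had a log2 fold change of 0.09 ± 0.08. The recombinase genes Rag1 and Rag2 had log2 fold changes of -0.25 ± 0.65 and 0.15 ± 0.31, and their groups overlapped. Of 24 early B genes listed, 14 passed the filter on low counts. Of these 5 were higher and 9 lower in KO with a median log2 fold change of -0.14, and edgeR on 16 libraries called none (3 had an unadjusted edgeR p under 0.05, Ebf1 higher and 2 lower). DESeq2 called none either, but gave no adjusted p for Cd79a, Rag1, Blk, Spib, Bank1 and Cplx2. It called 1 or 2 members lower in 6 of 8 fits with a library left out. Over those 8 fits it called 0.42% to 2.02% of all genes lower.

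Immunoglobulin heavy chain transcripts were abundant in both labels and light chain transcripts were rare. Ighm, the μ heavy chain, lay at 1123 ± 45.3 normalised CPM in WT and 1193 ± 87.8 in KO (log2 fold change 0.09 ± 0.31). Igkc, the constant region of the κ light chain, had 58, 514, 139 and 46 counts in WT and 0, 0, 6 and 0 in KO. The groups did not overlap, but WT replicate 2 stood far above the other WT libraries and edgeR's FDR was 0.30. Variable segments of κ summed to 0.847 to 13.4 normalised CPM in WT and 0.107 to 0.519 in KO. Ms4a1 (CD20), which marks mature B cells, had at most 26 counts in any library.

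Across the genome, few genes passed the main test and the wider set of changes was small in size. Of 11831 genes tested, edgeR on 16 libraries called 2, which is 0.0169%: Mt1, higher in KO, and Kit, lower. At an unadjusted p under 0.05 there were 1519 genes, 672 higher and 847 lower, where 592 would arise from p-values spread evenly. With the 8 MPP4 libraries alone edgeR called 20 genes (0.169%), 12 higher and 8 lower. DESeq2 on 16 libraries called 305 genes (2.58%), 153 higher (1.29%) and 152 lower (1.28%). The median size of those 305 log2 fold changes was 0.486, and 14 exceeded 1. The most negative were immunoglobulin variable segments read almost only in WT replicate 2, such as Igkv14-126 at 2.83 ± 5.54 normalised CPM in WT and 0 in every KO library, a gene chosen after its values were seen. The 4 KO libraries lay above the 4 WT libraries at 335 genes (2.83%) and below them at 525 genes (4.44%). DESeq2 called 18 of the 20 genes that edgeR called on MPP4 alone, 11 higher and 7 lower. Counts of calls moved with single libraries: those 20 became 42 without KO replicate 4, 36 without KO replicate 3, between 4 and 9 without any other library, and the 305 became 98 without WT replicate 3, 100 without WT replicate 2, 112 without KO replicate 2 and 161 without KO replicate 1.

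**Figure D2:**
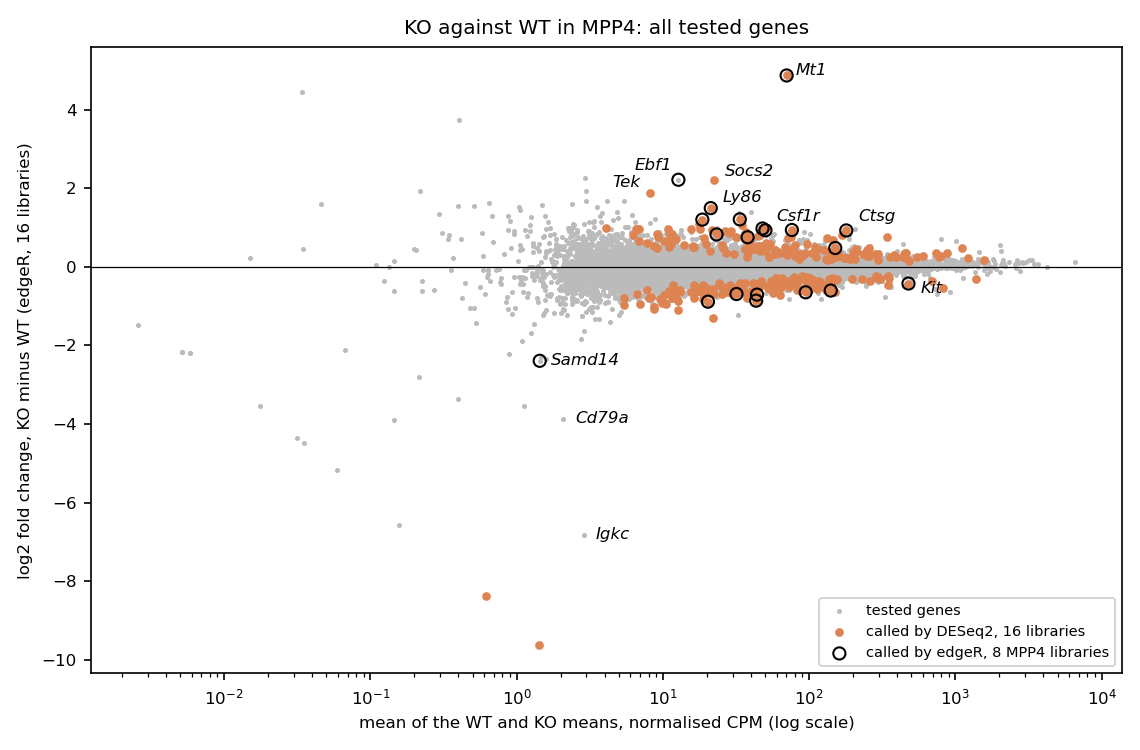
Log2 fold change, KO over WT in MPP4 (vertical axis), against the mean level in normalised CPM (horizontal axis, log scale) for the 11831 genes tested, with 1 point per gene and colours for the genes called by each method. Mt1 has the highest log2 fold change, 4.88, and most genes called by DESeq2 lie within 1 of 0.

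Mt1, a metallothionein that binds zinc and other metals, showed the largest rise. It lay at 5.22, 4.16, 3.59 and 5.50 normalised CPM in WT and at 144, 178, 92.5 and 128 in KO. All KO libraries were high and all WT libraries low, far apart. The log2 fold change was 4.88 ± 0.30 (edgeR FDR = 1.58e-07), and the call held in all 12 alternative analyses and with each library left out. The paralogue Mt2 had 30, 12, 20 and 2 counts in WT and 9, 0, 7 and 11 in KO. Among 16 tested genes for metallothioneins, zinc transporters and their regulators, Mt1 was the member called by either tool, and the rest had log2 fold changes between -0.29 and 0.32. Mtf1, the metal-sensing activator of metallothionein genes, had a log2 fold change of 0.06 ± 0.11. In the study's lists of regions more accessible in KO, regions were annotated to Mt1 and to Tek, in MPP4 and in MPP3 alike. Why Mt1 rose was not tested.

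Tek and Socs2 showed the next largest differences among genes whose groups did not overlap and that DESeq2 called higher. Tek (Tie2, the angiopoietin receptor, whose regulatory sequences drive the Cre) lay at 5.0, 5.28, 2.08 and 1.62 normalised CPM in WT and at 14.1, 13.9, 9.45 and 14 in KO. Its log2 fold change was 1.89 ± 0.34 (edgeR FDR = 0.11, DESeq2 FDR = 4.34e-06). Among 10 tested endothelial markers Tek was the one called, 7 were lower in KO, and Kdr and Cdh5, which define endothelium, had at most 22 and 10 counts. Socs2, a suppressor of cytokine signalling induced by STAT5, lay at 11.6, 15.8, 1.24 and 2.92 normalised CPM in WT and at 45.0, 40.6, 25.8 and 34.9 in KO. Its log2 fold change was 2.22 ± 0.56 (edgeR FDR = 0.166, DESeq2 FDR = 0.03). WT libraries of both genes split by sex, with the females higher, while all 4 KO libraries lay above them.

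Myeloid progenitor genes were mostly higher in KO. Of 30 listed genes, all tested, 27 had a positive log2 fold change, the median was 0.44 against -0.01 over all genes, DESeq2 called 8 higher and none lower, and edgeR on the 8 MPP4 libraries called 6 higher. Over all genes DESeq2 called 1.29% higher and 1.28% lower, and edgeR on 8 libraries called 0.169%. The 4 KO libraries lay above the WT libraries at 9 of the 30 and below at none, against 2.83% and 4.44% of all genes. This and the other lists were chosen with earlier results of these data known. Such shares therefore describe a list and do not test it. Csf1r, the receptor for M-CSF that marks monocyte and macrophage fate, lay at 26.9, 31.0, 37.6 and 33.6 normalised CPM in WT and at 49.4, 63.4, 85.5 and 56.5 in KO (log2 fold change 0.98 ± 0.20). Ly86 (MD-1, a partner of the Toll-like receptor homologue RP105) lay at 13, 11.0, 7.92 and 12.6 in WT and at 31.8, 31.2, 34.6 and 28.1 in KO (1.5 ± 0.32). Ctsg, which encodes the granule protease cathepsin G, lay at 96.9, 115, 140 and 143 in WT and at 214, 241, 266 and 221 in KO (0.93 ± 0.19). All 3 genes had FDR = 0.11 in edgeR on 16 libraries, passed on the 8 MPP4 libraries (0.0779, 0.00855 and 0.029), and passed in DESeq2 (0.000385, 0.000538 and 0.00325). With each of the 8 libraries left out in turn, the calls on MPP4 alone held in 3 fits for Csf1r, 8 for Ly86 and 6 for Ctsg.

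Irf8, the factor of monocyte and dendritic cell fate, lay at 189, 278, 227 and 316 normalised CPM in WT and at 371, 425, 527 and 396 in KO, again without overlap (0.77 ± 0.21, DESeq2 FDR = 0.0595). The other members called by DESeq2 were F13a1 (1.21 ± 0.34), a coagulation factor subunit made by monocytes, Anxa3 (0.76 ± 0.19), Plac8 (0.48 ± 0.15) and Clec12a (0.48 ± 0.16), the last a lectin receptor of myeloid cells. Plac8 and Clec12a were chosen after their values were seen. With each of the 8 libraries left out in turn, the DESeq2 call held in 2 fits for F13a1, 8 for Anxa3 and 1 for Clec12a. With single libraries left out, DESeq2 called between 4 and 9 of the 30 higher and none lower. In those fits it called 0.37% to 1.94% of all genes higher. The median of the list ranged from 0.37 to 0.52.

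**Figure D3:**
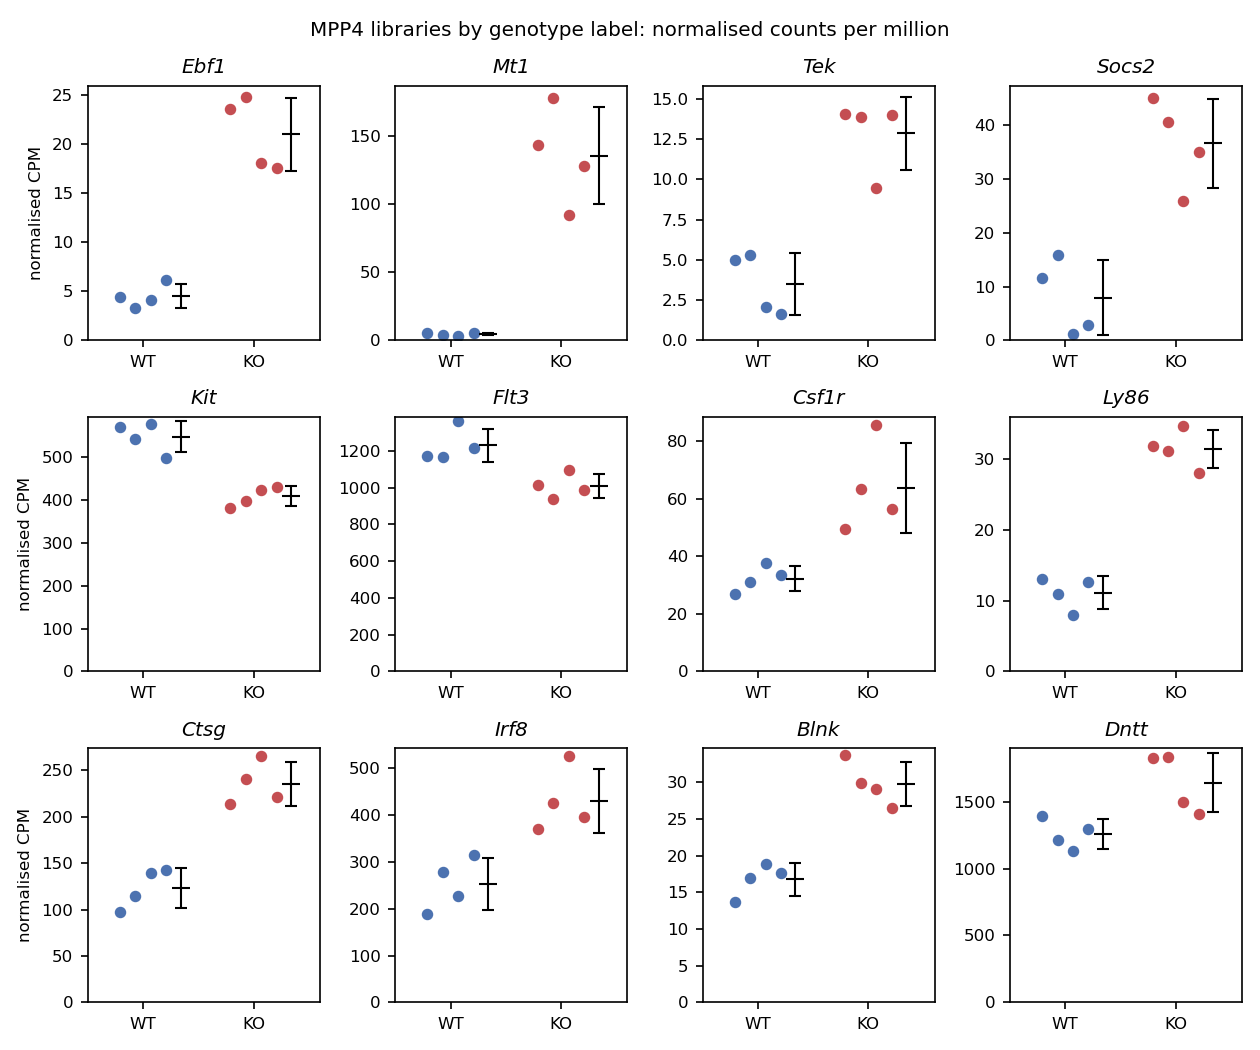
Normalised CPM (vertical axes) of 12 genes in the 4 WT and 4 KO MPP4 libraries, with 1 point per library and the mean ± SD. The groups do not overlap for any gene shown, with Ebf1, Mt1, Tek, Socs2, Csf1r, Ly86, Ctsg, Irf8, Blnk and Dntt higher and Kit and Flt3 lower in KO.

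General granulocyte and myeloid regulators were not called. Cebpa, a factor required for the granulocyte-monocyte lineage, lay at 10.1, 13, 17.0 and 30.6 normalised CPM in WT and at 29.9, 30.4, 38.8 and 16.7 in KO. The groups overlapped through WT replicate 4 and KO replicate 4, and the log2 fold change of 0.71 ± 0.33 was not called (edgeR FDR = 0.38). Cebpb gave 0.87 ± 0.88, Gfi1 0.83 ± 0.36 and Spi1 (PU.1) 0.07 ± 0.10. Receptor and granule genes gave 0.40 ± 0.23 for Mpo, -0.02 ± 0.46 for Elane, -0.17 ± 0.14 for Csf2ra and -0.11 ± 0.10 for Csf3r, and none was called. Of 14 tested primary granule genes 9 were higher (median 0.17), and Ctsg was the one called. Of 7 tested genes of mature neutrophils 6 were higher (median 0.48). None of the 7 was called by edgeR or DESeq2, and 2, both higher, had an unadjusted edgeR p under 0.05.

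Monocyte and dendritic genes were also mostly higher in KO, and their list shares Csf1r, Irf8 and Ly86 with that of myeloid progenitor genes. Their summed level overlapped between labels, at 2444 to 2759 normalised CPM in WT and 2663 to 3160 in KO. Of 22 tested members 19 were higher, with a median log2 fold change of 0.49, and DESeq2 called 6 higher and none lower, against 1.29% and 1.28% of all genes. The KO libraries lay above WT at 6 members and below at 2, Flt3 and Ccr9, against 2.83% and 4.44% of all genes. The further members called were Tyrobp (0.55 ± 0.14), an adaptor of myeloid receptors, and the class II antigen presentation genes H2-Ab1 (0.68 ± 0.17) and H2-Aa (0.72 ± 0.21). H2-Ab1 lay at 110, 86.4, 113 and 137 normalised CPM in WT and at 202, 174, 215 and 124 in KO, so KO replicate 4 fell inside the WT range. The invariant chain gene Cd74 gave 0.51 ± 0.21 and was not called. The class II genes also belong to a list of mature B markers, whose 7 tested members had a median of 0.51. The B-cell member Ms4a1 was too low to test. Outside the lists, Ms4a6c (0.93 ± 0.17), Mpeg1 (0.94 ± 0.25), Tmem119 (1.21 ± 0.23) and the galectin gene Lgals1 (0.83 ± 0.17) were called higher by DESeq2, and the first 3 also by edgeR on the MPP4 libraries. Mpeg1, a pore-forming protein of macrophages, was chosen after its values were seen.

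Lymphoid priming genes showed no shared direction. Of 27 tested members 15 were higher and 12 lower, with a median of 0.03 that changed sign in 3 alternative analyses. DESeq2 called 2 higher and none lower, against 1.29% and 1.28% of all genes. Of these 2, Blnk is described here. Blnk, the adaptor that links the B cell receptor to its downstream kinases, lay at 13.7, 17.0, 18.9 and 17.6 normalised CPM in WT and at 33.7, 29.9, 29.0 and 26.4 in KO. The groups did not overlap (0.83 ± 0.21, DESeq2 FDR = 0.0171, edgeR on 8 libraries FDR = 0.0728).

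Dntt, the terminal transferase expressed from the first lymphoid steps, lay at 1392, 1214, 1132 and 1294 normalised CPM in WT and at 1827, 1836, 1493 and 1410 in KO. The groups did not overlap, yet the log2 fold change of 0.38 ± 0.20 was not called (edgeR FDR = 0.429). Il7r, the interleukin-7 receptor, gave 0.58 ± 0.34 and Ly6d, a marker of B-biased lymphoid progenitors, 0.76 ± 0.33. The regulators Satb1 (0.22 ± 0.12), Notch1 (0.03), Ikzf1 (0.04), Tcf3 (0.03), Id2 (0.08), Foxo1 (0.36 ± 0.27) and Bcl11a (-0.18 ± 0.08) were not called, and the signs for Notch1, Ikzf1, Tcf3 and Id2 changed in at least 1 alternative analysis. Over the whole list the KO libraries lay above WT at 3 of 27 members and below at 3 (Flt3, Ccr9 and Bcl11a, none called), against 2.83% and 4.44% of all genes.

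**Figure D4:**
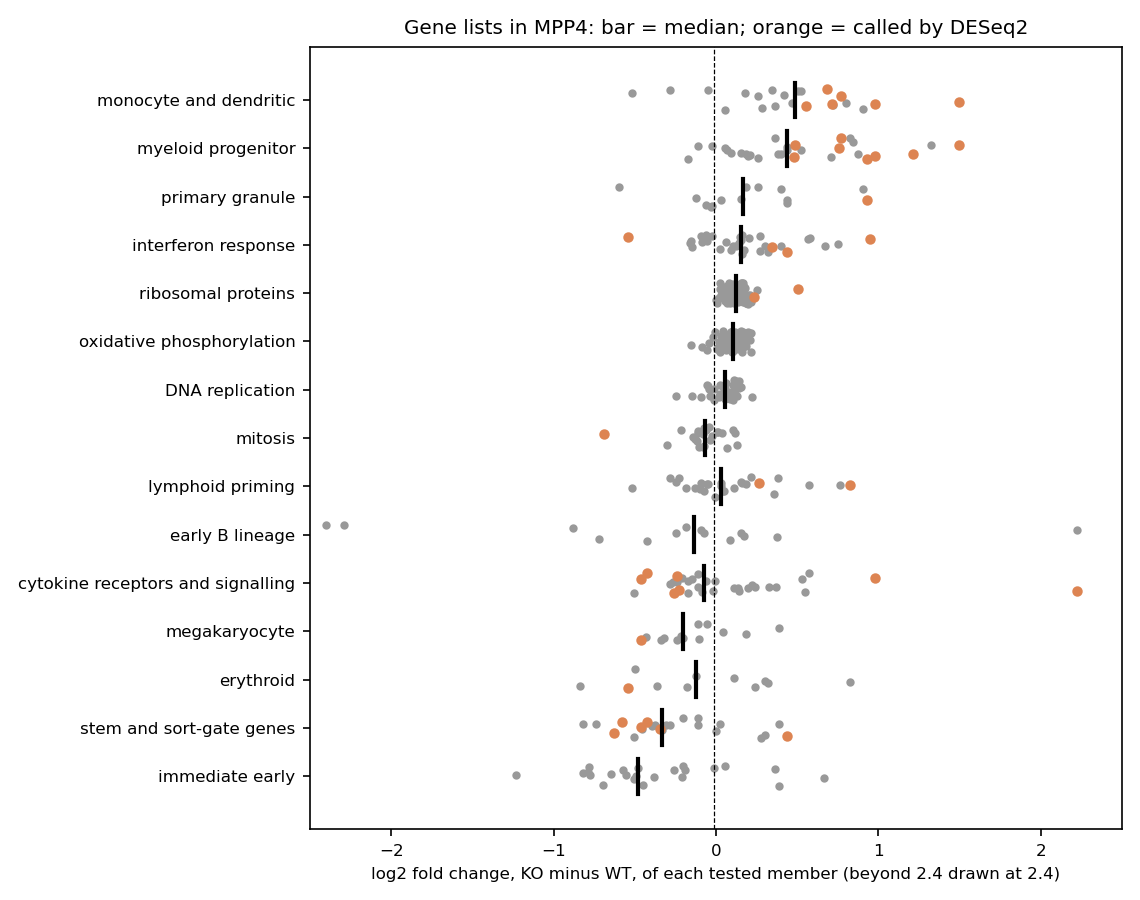
Log2 fold change, KO over WT in MPP4 (horizontal axis), of every tested member of 15 gene lists (rows), with 1 point per gene and a mark at the list's median. The myeloid progenitor and the monocyte and dendritic lists lie to the right of 0 (medians 0.44 and 0.49), the stem and sort-gate list to the left (-0.33), and lymphoid priming around 0.03.

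Genes of stem cells and of the sort gate were mostly lower in KO. Of 23 tested members 17 were lower, the median was -0.33, and DESeq2 called 5 lower and 1 higher, against 1.28% and 1.29% of all genes. Kit, the receptor for stem cell factor and part of the gate, lay at 571, 542, 578 and 498 normalised CPM in WT and at 381, 398, 423 and 431 in KO. The groups did not overlap, and the log2 fold change of -0.42 ± 0.07 was called (edgeR FDR = 0.056). The call was lost without WT replicate 1, WT replicate 3, KO replicate 1 or KO replicate 2, and with age as a term (FDR = 0.26), while the log2 fold change stayed between -0.46 and -0.39 over libraries left out and was -0.39 with age. Flt3, also a gate marker, lay at 1172, 1164, 1362 and 1217 in WT and at 1015, 938, 1093 and 989 in KO, without overlap and without a call (-0.28 ± 0.10, FDR = 0.229). Ly6a (Sca1), another gate marker, went the other way, at 52.1, 49.5, 48.3 and 47.3 in WT and 70.9, 64.3, 77.9 and 53.5 in KO (0.44 ± 0.13, DESeq2 FDR = 0.0618). Cd48 gave 0.30 ± 0.10 and Cd34 -0.11 ± 0.05, and neither was called.

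Other members that DESeq2 called lower encode transcription factors of stem cell maintenance. These were Hlf (-0.58 ± 0.16), Meis1 (-0.35 ± 0.11) and Mecom (-0.63 ± 0.20), the last 2 chosen after their values were seen. Hlf lay at 146, 111, 90.7 and 82.3 normalised CPM in WT and at 72.3, 55.1, 74.5 and 85.9 in KO, so KO replicate 4 lay above WT replicate 4. The number of these calls moved with single libraries, as it did over all genes. DESeq2 called 1 of the 23 lower without WT replicate 2 or KO replicate 2 (0.44% and 0.57% of all genes). It called 6 lower without KO replicate 3 or KO replicate 4 (2.02% and 1.52% of all genes). The median stayed negative throughout (-0.36 to -0.23 over libraries left out, -0.24 with age as a term).

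Cytokine signalling genes divided by member. Of 32 tested, 13 were higher and 19 lower, and DESeq2 called 2 higher, Csf1r and Socs2, and 5 lower, among them Kit, Jak1, Stat3 and Stat5a, against 1.29% and 1.28% of all genes. Jak1, a kinase shared by many cytokine receptors, and the transcription factors Stat3 and Stat5a, which it activates, were named after their values were seen. Jak1 was lower by a small amount, at 372 ± 11.0 normalised CPM in WT and 319 ± 30.1 in KO (log2 fold change -0.22 ± 0.06). Stat3 gave -0.24 ± 0.07 and Stat5a -0.26 ± 0.08. Stat3 and Stat5a overlap each other on opposite strands and the use of strand in counting is not stated, so their counts may share reads. Of 11 tested genes of the erythroid list DESeq2 called 1, Car2 (carbonic anhydrase II, -0.54 ± 0.11), lower, against 1.28% of all genes. Klf1 and Gata1, which define erythroid cells, had at most 177 and 98 counts in any library.

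Of the other genes that edgeR called on MPP4 alone, the 8 lower ones were Kit, Def8, Akna, Slc16a11, Rfx1, Espl1, Arhgap27 and Samd14. With each library left out in turn, edgeR on MPP4 called none of the 8 in more than 4 of 8 fits, and Espl1 and Samd14 in 0. DESeq2 on 16 libraries called Kit, Def8, Akna, Espl1 and Arhgap27 in all 8, Rfx1 in 7, Samd14 in 5 and Slc16a11 in 0. Every one stayed negative, with a log2 fold change of -0.74 to -0.62 for Espl1 and -2.57 to -2.18 for Samd14. Def8, linked to lysosome positioning, lay at 166, 173, 171 and 167 normalised CPM in WT and at 106, 128, 112 and 101 in KO (-0.60 ± 0.12). Akna, which encodes a microtubule-organising AT-hook protein, gave -0.65 ± 0.16. Espl1, the separase that opens sister chromatids at anaphase, gave -0.69 ± 0.17. Samd14 was low in both labels, at 2.42 ± 0.776 and 0.460 ± 0.137 normalised CPM (-2.39 ± 0.52). Akna, Slc16a11, Rfx1 and Samd14 were named after their values were seen. Lower genes called by DESeq2 also included the ubiquitin ligase gene Nedd4 (-0.31 ± 0.06) and the egress receptor gene S1pr1 (-0.77 ± 0.19), which binds sphingosine-1-phosphate.

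Most genes of 2 housekeeping programmes had small positive log2 fold changes. Of 79 tested ribosomal protein genes 78 were higher in KO, with a median log2 fold change of 0.12, and DESeq2 called 2 higher, among them Rpl6 (0.23 ± 0.07), against 1.29% of all genes. Of 77 oxidative phosphorylation genes 71 were higher (median 0.11). None of them was called by edgeR or DESeq2, and 14, all higher, had an unadjusted edgeR p under 0.05, against 24 of the ribosomal genes, also all higher, and 672 of all 11831 genes higher. The summed levels overlapped between labels, at 57405 to 62302 normalised CPM in WT and 59543 to 68737 in KO for ribosomal genes and 16645 to 18341 against 17860 to 19630 for oxidative phosphorylation. Interferon response genes were higher at 24 of 33 (median 0.15). DESeq2 called 3 of the 33 higher (Psmb8, Ly6a and Ifi27l2a) and 1 lower (Ddx58), against 1.29% and 1.28% of all genes, and the median was -0.08 without KO replicate 3. Cell cycle genes gave no shared change of size: DNA replication genes had a median of 0.06 and mitosis genes of -0.07, and in these lists Espl1 was the one gene called by DESeq2. In longer cell cycle lists taken from the study, 51 of 89 tested G1/S genes, 42 of 96 S genes and 44 of 120 G2/M genes were higher. DESeq2 called 3 of the 89 higher (Ints8, Zmynd19 and Cdc25a), 1 of the 96 lower (Bivm) and 3 of the 120 lower (Espl1, Dcaf7 and Nfic), against 1.29% of all genes higher and 1.28% lower, and apart from Espl1 these were named after their values were seen.

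The libraries differed widely among themselves in immediate early genes, which respond within minutes to handling and to signals. Their summed level was 2458, 3747, 11975 and 7833 normalised CPM in WT and 3298, 2065, 10898 and 2942 in KO. WT replicates 3 and 4 and KO replicate 3 were high, so the pattern did not follow the label. Of 23 tested members none was called by edgeR or DESeq2, 0 had an unadjusted edgeR p under 0.05, and the median of -0.48 changed sign in 2 alternative analyses. Fos ranged from 70.7 to 2078 normalised CPM over WT libraries and from 16.5 to 1944 over KO libraries.

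The first principal component of the MPP4 libraries took 54.1% of the variance and the second 23.8%. Fos had the highest loading on both, followed on the first by the Y-linked genes Eif2s3y and Ddx3y. Xist, expressed from the inactive X chromosome, had the lowest on the first and Mt1 the lowest on the second. Female minus male was -10.9 on the first component (exact permutation p = 0.114, 2-sided). KO minus WT was 4.62 on the first component (exact permutation p = 0.6) and -6.35 on the second (exact permutation p = 0.114), 2-sided, where 4 against 4 libraries allow no p below 0.0286. KO replicate 3 lay among the WT libraries on the second component, at 4.31 where WT spanned 1.04 to 6.53 and the other KO libraries -10.7 to -1.97. Neither component separated the labels beyond the spread between libraries.

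**Figure D5:**
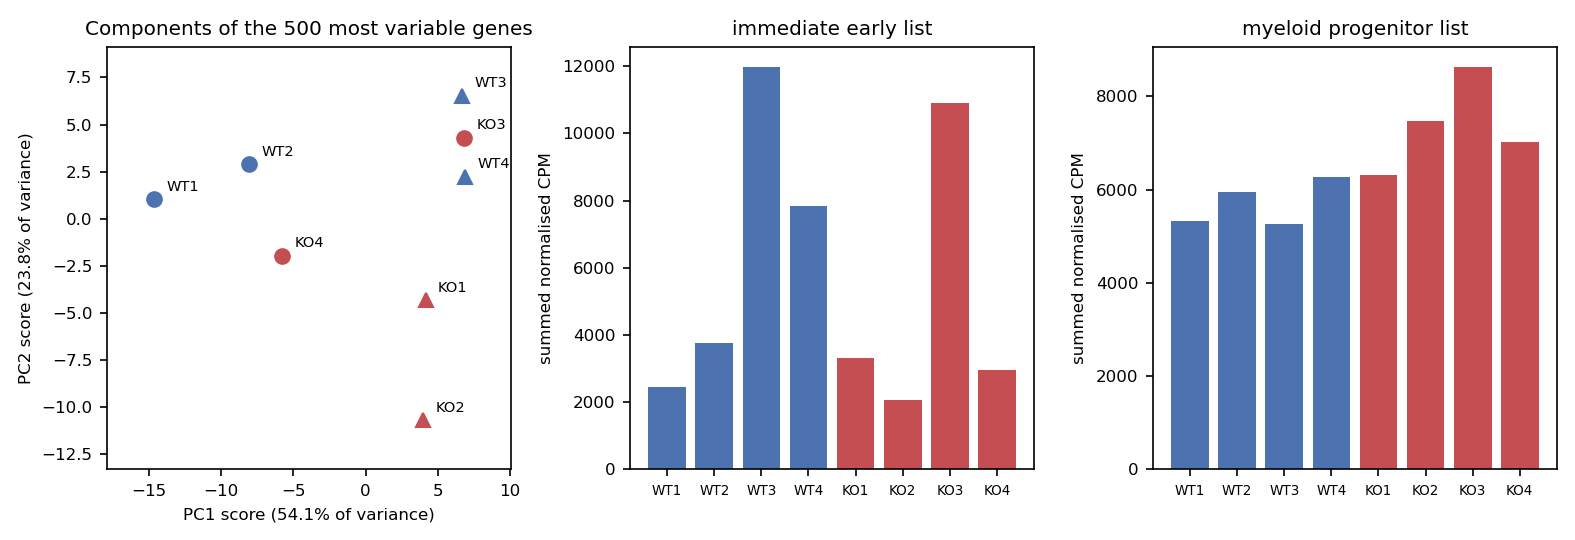
Scores of the 8 MPP4 libraries on the first (horizontal) and second (vertical) principal components of variance-stabilised counts, with circles for female and triangles for male mice, beside bars of the summed normalised CPM of immediate early and of myeloid progenitor genes in each library. Immediate early genes are high in WT replicates 3 and 4 and KO replicate 3, while the summed myeloid progenitor level was 5254 to 6274 in WT and 6307 to 8628 in KO.

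The summed myeloid progenitor level did not overlap between labels, though WT replicate 4 and KO replicate 1 nearly met (6274 and 6307 normalised CPM). Summed markers of some other cell types overlapped between labels. Mature neutrophil genes summed to 167 to 190 normalised CPM in WT and 161 to 213 in KO. Of 7 tested, 6 were higher (median log2 fold change 0.48). T and NK genes summed to 292 to 390 against 322 to 491. Of 11 tested, 10 were higher (median 0.20). No member of either list was called by edgeR or DESeq2. Erythroid genes summed to 1032 to 1210 in WT and 690.1 to 919 in KO (5 of 11 tested higher), most of it Car2, and without Car2 the sums overlapped (87.9 to 139 and 89.3 to 171). Megakaryocyte genes summed to 958 to 1010 in WT and 744 to 998 in KO, with 10 of 13 tested lower and a median log2 fold change of -0.20. Their part in the other differences was not tested. Monocyte markers Cd14 and Fcgr1 had at most 37 and 55 counts in any library, while Itgam gave 0.55 ± 0.24 and was not called.

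In MPP3 of the same mice, most of these differences had the same sign. The median log2 fold change was 0.73 in MPP3 and 0.44 in MPP4 for myeloid progenitor genes, and -0.19 and -0.33 for stem and sort-gate genes. No gene passed edgeR's test of the difference between the MPP4 and MPP3 effects, where 270 had an unadjusted p under 0.05. DESeq2 called 8 genes for that difference and edgeR with the mouse as a block called 2, Mt1 and Tek. Tek gave 1.89 ± 0.34 in MPP4 and 0.10 ± 0.32 in MPP3, and the blocked difference was 1.89 (edgeR FDR = 0.023). Mt1 gave 4.88 ± 0.30 and 2.84 ± 0.27, with a blocked difference of 1.93 (edgeR FDR = 0.00158). Socs2 (2.22 ± 0.56 and -0.01 ± 0.57), Blnk (0.83 ± 0.21 and -0.17 ± 0.22) and Ebf1 were not called for the difference by edgeR, so they are not shown to be particular to MPP4.

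With age in weeks as a term, edgeR called Mt1 alone, and the log2 fold changes of Csf1r (1.02), Ly86 (1.5), Ctsg (1.02) and Irf8 (0.82) lay close to those above while that of Blnk was 0.53. With sex as a term edgeR called 183 genes, 87 higher and 96 lower, Csf1r, Ly86, Ctsg, Kit and Blnk among them.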

How the data were processed

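The labels give each library of sorted cells the sex, age and number of 1 mouse. The authors aligned paired reads of 100 bases to mm10 with STAR 2.7.3a, and the authors deposited raw counts per gene from featureCounts 2.0.0, run in snakePipes 2.5.1. The annotation release and the use of strand are not given in the sources used here, so genes that overlap others are uncertain. A deposited table of normalised values was not used here.

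The tests covered genes whose mean exceeded 100 counts in at least 1 of the 4 groups. They used edgeR 4.0.16 in R 4.3.3 with TMM scaling, the quasi-likelihood F-test under legacy deviances and 1 mean per group over all 16 libraries, with Benjamini-Hochberg adjustment. DESeq2 1.42.0 and limma 3.58.1 (voom) served as alternatives, beside other filters and scalings, the 8 MPP4 libraries alone, sex or age as terms, and libraries left out. DESeq2 gave no adjusted p for 1379 genes. Components were taken from variance-stabilised counts of the 500 most variable genes. The main edgeR fit and DESeq2 on all 16 libraries were run on simulated counts, and the other fits were not.

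Of 47937 gene identifiers 47310 matched GENCODE M21, which gave symbols and coordinates. Of the genes named, those called or with the smallest p-values, the largest changes, up to 4 members per list and a fixed set were taken by rule, and others are marked as chosen after their values were seen. The lists and the members were chosen with earlier results of these data known. A search of promoters for motifs was void, since only 75.5% of tested genes had a promoter sequence.

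MPP3 and MPP4 libraries with 1 genotype and number came from the same mouse, and their deviations from the group means correlated at 0.274 to 0.530, so the mouse was used as a block for the difference between populations. A count of 3, the limit that a count of 0 allows, equals 0.0619 to 0.111 normalised CPM in MPP4 and covers counting error only. No replicates were identical, with a chi-square of 31.1 to 114 per gene between any pair within a label. Some genes are not reported here.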

Additional observations from a re-analysis of the deposited data

Results flagged for a closer look

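In 12 of 142 groups of 4 libraries (71 genes, both labels), 1 library stood apart by Dixon's ratio, the gap to its nearest neighbour over the whole range, above its 95% critical value. Chance does so in about 1 of 20 groups. Among immunoglobulin genes, WT replicate 2 was high for Igkc (ratio 0.891) and Jchain (0.934). KO replicate 3 was high for Igkc (1), where the other KO libraries were at 0, and for Cd79a (0.833). It was also high for the immediate early genes Fos (0.869, 1944 normalised CPM against at most 268 in the other KO libraries) and Egr1 (0.887), both named after their values were seen, and low for Tek (0.956). KO replicate 2 was low for Mt2 (0.860) and Mecom (0.832), and KO replicate 4 for Tcf3 (0.834, 129 normalised CPM against at least 238). WT replicate 2 was high for Csf3r (0.863), and WT replicate 4 for H2-Aa (0.916).

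The effect in MPP4 differed from that in MPP3 with the mouse as a block for Tek, by 1.89 on the log2 scale (edgeR FDR = 0.0230), and for Mt1, by 1.93 (edgeR FDR = 0.00158). Without the block, the FDR of both differences missed the threshold (0.383 for Mt1 and 1.00 for Tek).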

How the results depend on the processing

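The 2 genes called by edgeR stayed 2 with RLE scaling, with at least 1 count as the filter and with filterByExpr. The count was 305 by DESeq2, 395 by DESeq2 on the 8 MPP4 libraries, 20 by edgeR on those 8, 37 without legacy deviances, 34 by limma-voom, 183 with sex as a term, 1 with age as a term, 4 without mouse WT1, and 1 to 41 with a library left out. With the replicate number as a block it was 23. WT and KO libraries share only a number (correlations of their deviations -0.157, -0.223, 0.0618 and -0.438, and 0 of 8 correlated best with their own number). The difference between populations gave 0 calls except 8 by DESeq2 and 2 with the replicate block on the mouse. Leaving out a library, chosen after seeing the data for these fits, gave 4 to 42 calls on the 8 MPP4 libraries and 98 to 423 by DESeq2.

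The log2 fold change of Ebf1 passed on the 8 MPP4 libraries (2.22), by DESeq2 there (2.24), without legacy deviances (2.21) and by limma-voom (2.23), and ranged from 2.10 to 2.41 with a library left out. With a library left out, the first component's difference ranged from -3.67 (without WT replicate 1) to 8.54 and the second's from -8.86 to -2.60. The latter had p = 0.0286, the smallest possible in an exact permutation test, without KO replicate 2 or KO replicate 3, but without KO replicate 2 its scores correlated only 0.275 with those reported. The second's difference was -11.3 over all tested genes and -15.1 on log2 CPM, which have other scales.

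Of 67 other genes, 58 kept their direction in all alternatives. The sign changed for Elane (0.045 by limma-voom, 0.00794 with sex, 0.10 without mouse WT1, -0.31 to 0.25 with a library left out), Notch1 (-0.089 with age, -0.097 to 0.13 left out), Ikzf1 (-0.084 with age, -0.10 without mouse WT1, -0.10 to 0.15 left out), Tcf3 (-0.38 with age, -0.22 without mouse WT1, -0.22 to 0.32 left out), Id2 (-0.023 to 0.14 left out), Jchain (0.96 by limma-voom, 0.064 with sex, -1.30 to 1.78 left out), Myc (0.0027 by DESeq2 on 8 libraries, 0.090 with age, 0.0078 without mouse WT1, -0.11 to 0.10 left out), Fos (0.98 with age, -2.70 to 0.38 left out) and Egr1 (0.53 with age, -2.99 to 0.054 left out). Medians of 41 gene lists moved by more than the spread between libraries in 21 of 820 values. The cause was not tested for any of these. Of the mice, 2 WT and 2 KO were 11 weeks old, the other WT were 12 and the other KO 9 and 10, so age and label are partly confounded. Cd79a, low in KO, was called in 3 of 12 alternatives (FDR 0.0627 to 0.0998).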
